A study of Mus musculus with 2 samples.

Results

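The loci of Tyr, Tyrp1 and Dct, which encode the enzymes that make melanin in pigment cells, were examined in peak lists from chromatin immunoprecipitation followed by sequencing (ChIP-seq). The members were all rows of the lists that overlapped 3 windows of the mouse genome build mm9: chr7:94500000-94720000 for Tyr (220 kb), chr4:80430000-80550000 for Tyrp1 (120 kb) and chr14:118360000-118500000 for Dct (140 kb). They numbered 70 of 78725 rows, namely 10 of 8451 EP300 peaks of replicate 1, 13 of 10351 EP300 peaks of replicate 2 and 47 of 59923 H3K4me1 regions. The lists hold no gene names, and the start sites of the genes were not placed on mm9, so no peak is called a promoter or a distal site here.

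Both samples came from melan-a, a mouse line of immortalized melanocytes, with the strain labelled C57BL/6 Ink4a -/-, so that both samples carry the loss of Ink4a. The cells were not treated. The EP300 ChIP used an anti-p300 antibody and the H3K4me1 ChIP an anti-H3K4me1 antibody, and each sample stands for 2 replicates, per the labels. EP300 has a list for each replicate, from 31439027 and 32355042 filtered ChIP tags, whereas H3K4me1 has 1 list for both replicates and its depth is unknown. Separate cultures are not stated for the replicates, so their spread may be technical, and the data describe 1 cell line with no other cell type beside it. RNA was not measured, so transcript levels of the 3 genes do not enter.

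Tyrosinase, the product of Tyr, starts melanin synthesis by oxidising tyrosine. Dct, dopachrome tautomerase, rearranges a later intermediate, and Tyrp1 acts further down the same branch and stabilises tyrosinase in mouse melanocytes. The proteins belong to one family and their genes are classical targets of MITF, the melanocyte transcription factor that binds CATGTG-type E-boxes. EP300 is a histone acetyltransferase and coactivator found at active enhancers and promoters, and H3K4me1 marks nucleosomes at enhancers, often on either side of the bound site.

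The promoters of the 3 genes are shown because they share a sequence element around CATGTG. The 250 bases before each start site were taken from RefSeq on build GRCm38.p6, whose coordinates cannot be set beside the mm9 positions of the peaks: chr7:87493513-87493762, minus strand, for Tyr, chr4:80833963-80834212, plus strand, for Tyrp1, and chr14:118052247-118052496, minus strand, for Dct. Capitals mark the longest stretch present in all 3 sequences, read 5′ to 3′ along each gene.
Tyr: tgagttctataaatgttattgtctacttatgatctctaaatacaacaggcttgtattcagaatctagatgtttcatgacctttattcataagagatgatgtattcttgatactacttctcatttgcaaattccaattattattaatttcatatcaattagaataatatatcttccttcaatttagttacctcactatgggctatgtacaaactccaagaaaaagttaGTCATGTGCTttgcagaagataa
Tyrp1: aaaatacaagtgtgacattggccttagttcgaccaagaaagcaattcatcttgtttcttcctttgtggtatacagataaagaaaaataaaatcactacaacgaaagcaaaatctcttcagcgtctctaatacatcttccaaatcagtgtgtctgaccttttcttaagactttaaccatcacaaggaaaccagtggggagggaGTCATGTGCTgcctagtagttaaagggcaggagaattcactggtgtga
Dct: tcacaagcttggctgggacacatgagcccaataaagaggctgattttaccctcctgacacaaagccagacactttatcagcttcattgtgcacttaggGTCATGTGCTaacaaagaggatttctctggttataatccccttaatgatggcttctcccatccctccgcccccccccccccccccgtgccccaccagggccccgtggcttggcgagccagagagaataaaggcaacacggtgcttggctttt

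The shared stretch, GTCATGTGCT, was 10 bases long and lay at bases -23 to -14 in Tyr, -48 to -39 in Tyrp1 and -152 to -143 in Dct, counted back from the RefSeq start, so its distance from the start differed between the genes. It was chosen because all 3 promoters held it, and on either strand it occurred in 51 of 32851 promoters of the same length (0.155%). CATGTG itself was found in 12.3% of those promoters. Besides the shared copy, Dct had another CATGTG on the opposite strand at -232 to -227. Of the other words searched on both strands, ACAAAG (16.5% of promoters) occurred once in Tyrp1 and 2 times in Dct, and ACAATG (10.7%) once in Dct. CACGTG (6.02%) and TGACTCA, whose reverse complement is TGAGTCA (4.46%), were in none of the 3. The second ACAAAG of Dct, at -141 to -136, was separated from the shared stretch by 1 base. These are matches of letters in a window and no binding was measured at them.

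The EP300 peaks of the 3 windows formed 15 loci, of which 8 were found in both replicate lists and 7 in a single list. In replicate 1, 8 of 10 peaks (80%) overlapped a peak of replicate 2, against 42.9% of the whole list, and in replicate 2, 8 of 13 (61.5%) overlapped a peak of replicate 1, against 34.8%. The loci are numbered by position within each window. Tyr had 3 loci with 1 shared, Tyrp1 7 loci with 6 shared, and Dct 5 loci with 1 shared. Among the 8 shared loci, 4 were at least 18-fold enriched in both lists, against 1.65% of all 3573 shared loci. This level was set after the values were seen, just under the lowest of the 4 (18.02 at Tyr in replicate 2), so the count only describes them. These were Tyr locus 3, Tyrp1 loci 2 and 3, and Dct locus 4, so that each window held at least 1 of them. By the mean of their ranks in the lists the 4 lay between order 2 and order 16 of all shared loci. Fold enrichment is the tag pileup at the summit over the local background of the control, as the peak caller gave it.

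**Figure D1:**
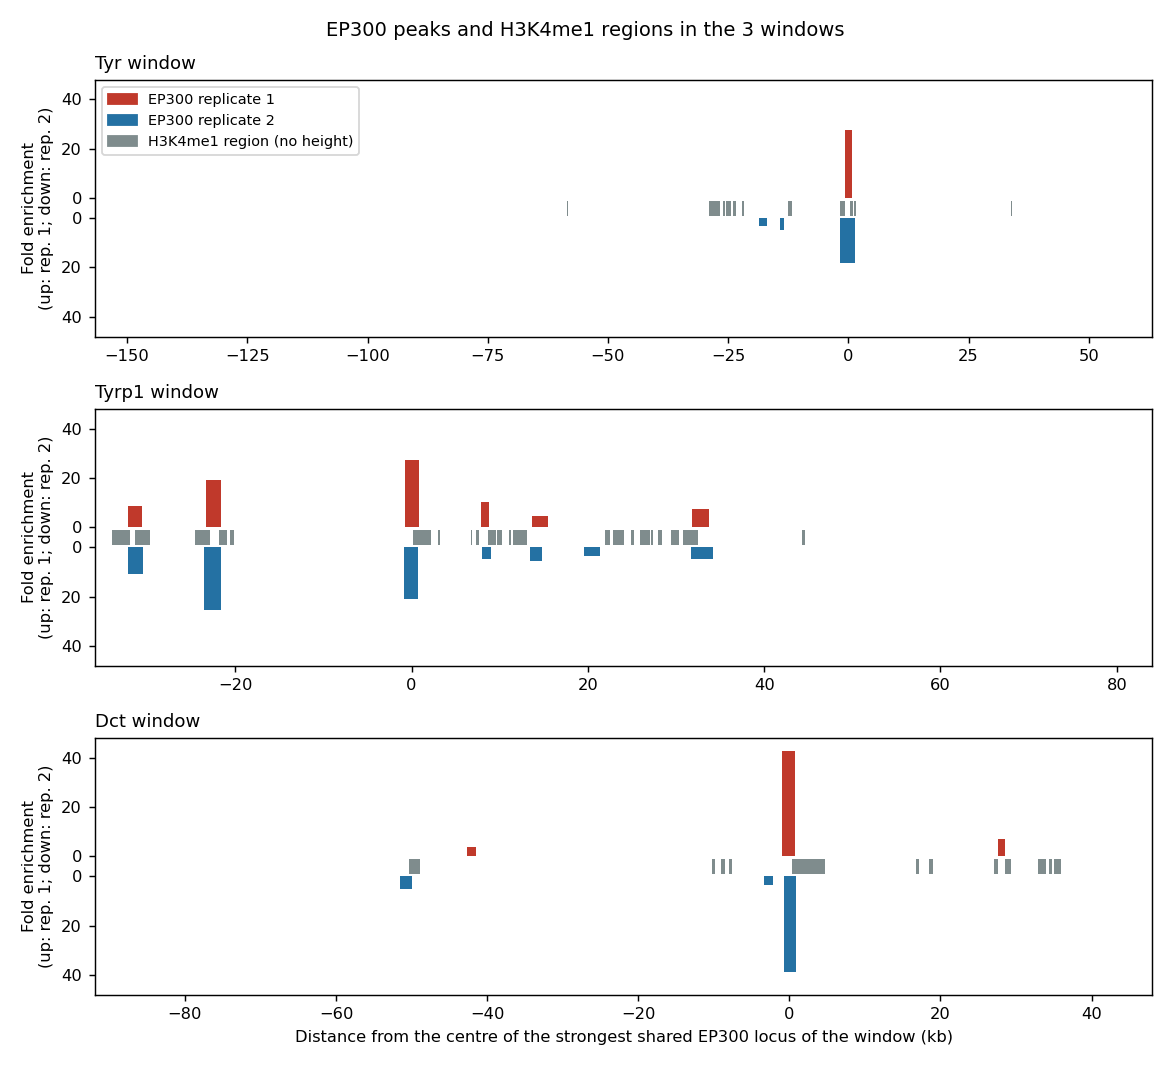
Map of the 3 windows. The horizontal axis is the distance in kb from the centre of the strongest shared EP300 locus of the window, bars upward are EP300 peaks of replicate 1 and bars downward those of replicate 2 with their fold enrichment as height, and grey boxes are H3K4me1 regions. Tyr and Dct each had 1 strong locus in both lists, while Tyrp1 had 6 shared loci spread over 64.2 kb.

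Dct locus 4, chr14:118450921-118452798, was the strongest of the 15 by fold enrichment in both replicates. It held 384 tags in replicate 1 (exact Poisson 95% interval 347 to 424, counting error only, as for all intervals here) and 355 in replicate 2 (319 to 394). Fold enrichment was 42.81 and 38.87, with a mean of 40.8 ± 2.79 (SD, n = 2). The peaks ranked 8 and 4 in their lists by significance, the Poisson p of the tags against the local background, and their summits lay 14 bp apart. The tag densities were also close, at 214 and 218 tags per kb of peak.

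Tyr locus 3, chr7:94655110-94658068, was the only Tyr locus in both lists. Replicate 1 had 303 tags (269.8 to 339) in a peak of 1471 bp and replicate 2 had 373 tags (336 to 413) in a peak of 2959 bp. Fold enrichment was 27.66 and 18.02, a mean of 22.8 ± 6.82 (SD, n = 2), at ranks 11 and 26. The tag density was 206 per kb in replicate 1 and 126 in replicate 2. The replicate 1 peak lay inside the longer replicate 2 peak, with an overlap of 1471 bp, and the summits were 249 bp apart.

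Tyrp1 had a pair of strong loci. Locus 3, chr4:80465062-80466819, held 372 tags (335 to 412) in replicate 1 and 317 (283 to 354) in replicate 2, with a fold enrichment of 27.37 and 20.97, a mean of 24.2 ± 4.53 (SD, n = 2). Its summits were 7 bp apart. Locus 2, chr4:80442420-80444373, lay 22.5 kb away from it, centre to centre, and held 325 tags (291 to 362) and 341 (306 to 379), with a fold enrichment of 19.09 and 25.65, a mean of 22.4 ± 4.64 (SD, n = 2). In replicate 1 locus 3 had the higher fold of the pair and in replicate 2 locus 2 did, so the replicates do not order them.

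Across the 4 strong loci, Dct locus 4 came first by fold in both lists. Its lower replicate value, 38.87, was above the highest value of the other 3, which was 27.66. The order of the other 3 changed between the lists. Tyr locus 3 was the highest of them in replicate 1 and the lowest in replicate 2, and their means differed by less than their SDs. By tag density the picture was different: Tyrp1 locus 3 led in replicate 1 with 228 tags per kb, above the 214 of Dct locus 4, and Dct locus 4 led in replicate 2 with 218 against 191. The control background, worked out for each peak from its tags and its Poisson significance, was 1.36 and 1.18 times the genome-wide level at Dct locus 4, and 1.91 and 2.01 times at Tyrp1 locus 3. Summit heights recovered from these values were 191 and 156 tags at Dct locus 4, 172 and 143 at Tyrp1 locus 3, 144 and 148 at Tyrp1 locus 2, and 113 at Tyr locus 3 in replicate 1. In replicate 2 the Tyr value, 103.46, was not whole and is not counted as a height. Loci of the same cells are not replicates of each other, and no test was made between them.

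The remaining 4 shared loci were all in the Tyrp1 window and were weaker. Locus 1, chr4:80433740-80435489, held 127 tags (106 to 151) in replicate 1 and 200 (173 to 229.7) in replicate 2, with a fold of 8.54 and 10.8. Locus 7, chr4:80497676-80500139, held 111 tags (91.3 to 134) and 172 (147 to 199.7), yet the fold was higher in replicate 1, at 7.64 against 4.88. Its background was 1.03 times the genome-wide level in replicate 1 and 1.94 times in replicate 2. Loci 1 and 7 were the only shared loci of the 8 whose tag intervals did not overlap between the lists. Both held more tags in replicate 2, where their peaks were also longer (length ratios of replicate 1 over replicate 2 of 0.93 and 0.82). The share of all shared loci with such intervals was not counted, so this only describes the 2 loci.

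Tyrp1 locus 4, chr4:80473822-80474927, had nearly equal tags, 68 (52.8 to 86.2) and 71 (55.5 to 89.6), but a fold of 10.23 in replicate 1 and 4.86 in replicate 2. Its rank was 1431 in replicate 1 and 6454 in replicate 2. The background worked out for it was 1.34 times the genome-wide level in replicate 1 and 2.25 times in replicate 2, a value exceeded by 0.792% of the replicate 2 peaks. The summit heights were 45 and 37 tags. Fold enrichment and the tag count thus disagreed about this locus. Locus 5, chr4:80479418-80481390, had 78 tags (61.7 to 97.3) and 83 (66.1 to 103), with a fold of 4.77 and 5.72.

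**Figure D2:**
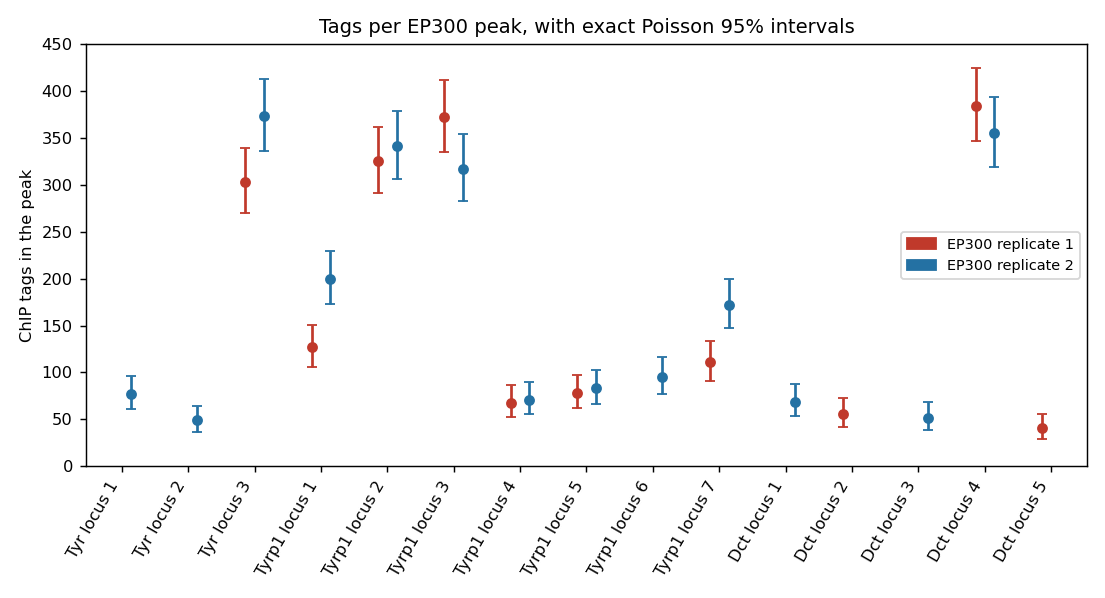
Tags in each of the 23 EP300 peaks of the windows. Points are the tags in a peak, bars the exact Poisson 95% intervals, colours the replicates, and the loci are in order of position within each window. The 4 strong loci held 303 to 384 tags, whereas the peaks found in a single list held 41 to 95.

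On the log2 scale, the fold enrichment of replicate 1 relative to that of replicate 2 ranged from -0.43 at Tyrp1 locus 2 to 1.07 at Tyrp1 locus 4, with a median of 0.26 over the 8 shared loci. Over all 3573 shared loci the median was 0.10 (SD 0.53). At 6 of the 8 the ratio was within 1 SD of that median. The same share over all loci was not counted, so the count only describes the 8. The exceptions were Tyrp1 locus 4, with a ratio exceeded by 3.19% of all shared loci, and Tyrp1 locus 7, at 0.65, exceeded by 14.6%. Locus 7 was only just outside, at 1.02 SD from the median, and Tyrp1 locus 2 just inside, at -0.99 SD. Measured as tags per kb, scaled to the filtered tags of each library, the ratio of locus 4 was 0.08 and that of locus 7 was -0.31. On this scale Tyr locus 3 had the highest ratio of the 8, at 0.75, where the replicate 1 peak was 0.50 times as long as that of replicate 2. The log2 ratio of its tags alone was -0.26.

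**Figure D3:**
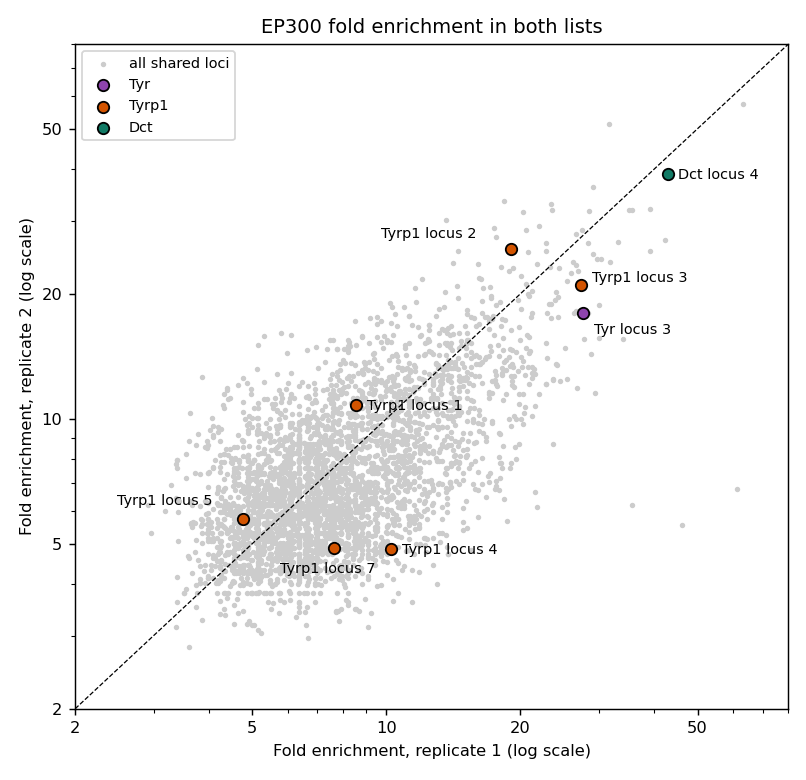
EP300 fold enrichment in replicate 1 against replicate 2, both axes logarithmic. Grey points are all 3573 shared loci, coloured points the 8 of the windows, and the dashed line marks equal values. Dct locus 4 lies near the line at 42.81 and 38.87, and Tyrp1 locus 4 lies below it at 10.23 and 4.86.

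The 7 loci found in a single list were weak. They held 41 to 95 tags and were 3.21-fold to 6.94-fold enriched, with 43.1 to 53.2 tags per kb. Only 1 of the 7 was at or above the median fold of its own list, which was 5.79 in replicate 1 and 5.57 in replicate 2. All 7 nevertheless had more tags than the median peak found in that list alone (32 and 34 tags), and they were 951 bp to 1786 bp long against medians of 717 bp and 743 bp. The median tags per kb of such peaks was 46.1 in replicate 1 and 47 in replicate 2. The loci of replicate 1 were below it, and those of replicate 2 lay on either side. The median fold of such peaks was 5.46 and 5.25.

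By gene, Tyr loci 1 and 2 were found in replicate 2 alone. Locus 1, chr7:94638184-94639747, had 77 tags (60.8 to 96.2) and a fold of 3.21, and locus 2, chr7:94642461-94643438, had 49 tags (36.3 to 64.8) and a fold of 4.9. The nearest replicate 1 peak was 16.3 kb and 12.6 kb away. Tyrp1 locus 6, chr4:80485492-80487277, also in replicate 2 alone, had 95 tags (76.9 to 116) and a fold of 3.57, and it lay 4.1 kb from a replicate 1 peak.

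Dct had 4 such loci, evenly divided between the lists. Replicate 2 alone had locus 1, chr14:118400381-118401944, with 69 tags (53.7 to 87.3) and a fold of 5.0, and locus 3, chr14:118448627-118449748, with 52 tags (38.8 to 68.2) and a fold of 3.61. The latter was 1.17 kb from the replicate 1 peak of the strong locus 4. Replicate 1 alone had locus 2, chr14:118409244-118410476, with 56 tags (42.3 to 72.7) and a fold of 3.64, and locus 5, chr14:118479503-118480453, with 41 tags (29.4 to 55.6) and a fold of 6.94.

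The control background stood above the median of its list at 22 of the 23 peaks of the windows. It ran from 1.03 to 2.29 times the genome-wide level in replicate 1 and from 1.18 to 2.25 times in replicate 2, where the list medians were 1.05 and 1.08 over all peaks and 1.16 and 1.26 over shared peaks. The highest value, 2.29, was at Tyrp1 locus 2 in replicate 1, and was exceeded by 0.32% of that list. In replicate 2 every Tyrp1 peak had at least 1.70 and the Dct peaks had 1.18 to 1.31. In replicate 1 the windows overlapped, with 1.03 to 2.29 at Tyrp1 and 1.05 to 1.36 at Dct. The part of the background in the calls and fold values was not tested. Solved summit heights were whole at 21 of the 23 peaks. The exceptions were Tyr locus 3 in replicate 2 (103.46) and Tyrp1 locus 1 in replicate 1 (51.61), whose backgrounds are less certain.

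H3K4me1 lay beside all 8 shared loci, within 1000 bp of their edges, as it did for 96.1% of all shared loci. Of the single-list loci, 1 of 2 in replicate 1 and 3 of 5 in replicate 2 had a region that near, against 46.6% and 46.1% of all peaks found in only that list. Measured from the centre of the locus, the 8 shared loci fell into unlike arrangements. In 3 the centre lay in a gap flanked by regions no more than 1000 bp away in either direction (62.3% of all shared loci), in 3 a region was that near on 1 side (19%), 1 centre was inside a region (12.2%) and 1 had none within 1000 bp (6.47%).

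The gaps were at Tyr locus 3 and Tyrp1 loci 2 and 4. The Tyr gap was 1100 bp wide, between regions of 1100 bp and 650 bp that ranked 16895 and 24266 among the 59923. The gap of Tyrp1 locus 2 was 1050 bp wide, between regions of 1700 bp and 900 bp (ranks 13728 and 10543). The gap of Tyrp1 locus 4 was also 1050 bp wide, between smaller regions of 350 bp and 850 bp (ranks 34169 and 27991).

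The strong Dct locus and the other strong Tyrp1 locus had H3K4me1 on 1 side. At Dct locus 4 a region of 4350 bp, chr14:118452300-118456649, began 355 bp above the centre, while the nearest region below was 7.6 kb away. It ranked 1027 and was the longest region of the windows. At Tyrp1 locus 3 a region of 2100 bp, chr4:80466100-80468199 (rank 8213), began 146 bp above the centre, and the nearest region below was 20.2 kb away. Tyrp1 locus 7 had the reverse order, with a region of 1700 bp 328 bp below the centre and none above for 11.6 kb. Among all shared loci 10.0% had a region within 1000 bp on 1 side and none within 5000 bp on the other, compared with these 3 of 8. The 5000 bp limit was not part of the plan and lies under the smallest of these empty distances, 7.6 kb, so the count only describes them. Without that limit the same 3 of 8 stand against 19% of all shared loci. "Above" and "below" refer to increasing and decreasing mm9 coordinates, not to the direction of transcription.

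The centre of Tyrp1 locus 1 fell on the first base of a region of 1700 bp, chr4:80434550-80436249, and is counted as inside a region. On the other side, 501 bp away, was a region of 1800 bp (rank 1747). The centre thus missed the gap between these regions by 1 base. Both summits, at 80434758 and 80434753, lay within the region of 1700 bp. Tyrp1 locus 5 had a region of 1550 bp (rank 3791) 1168 bp from its centre and 418 bp from its edge. Among the single-list loci, Dct locus 5 lay in a gap of 900 bp and Dct locus 1 had a region on 1 side, 438 bp from its centre. The other 5 had none within 1000 bp of the centre, and Dct locus 2 was 6.24 kb from the nearest region.

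**Figure D4:**
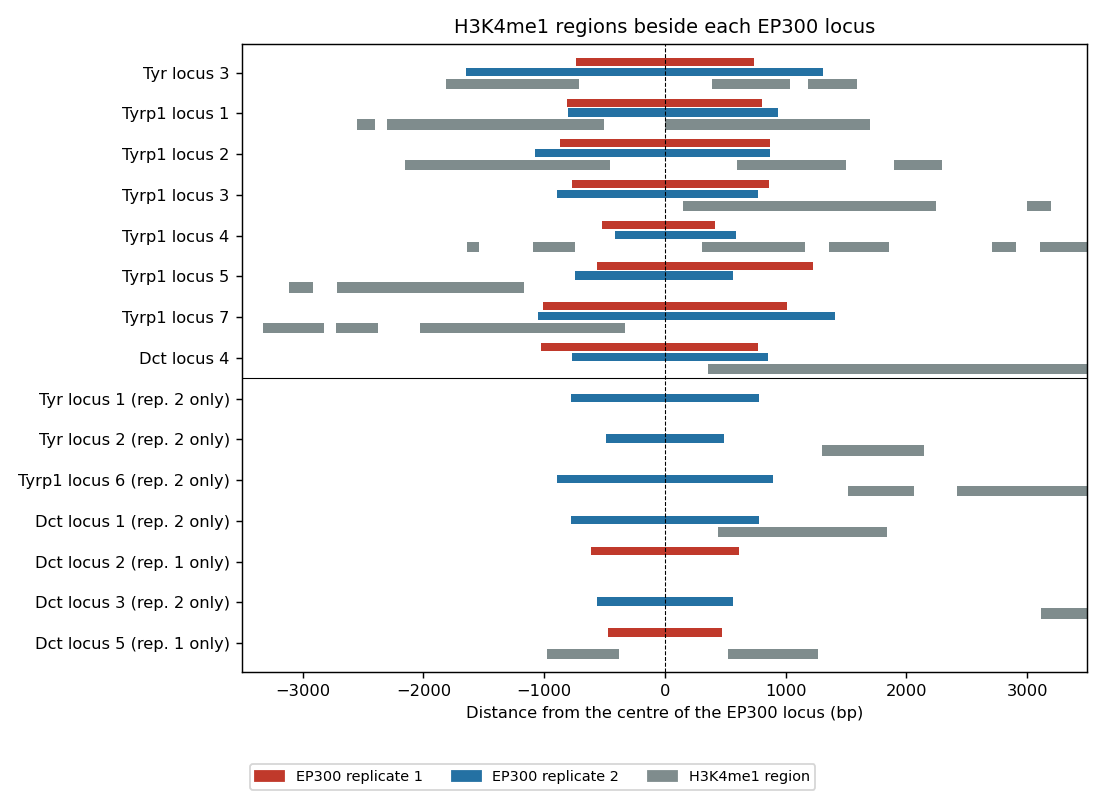
H3K4me1 regions around the 15 EP300 loci, with distance from the centre of the locus in bp on the horizontal axis. Red and blue bars are the EP300 peaks of replicates 1 and 2 and grey bars the H3K4me1 regions, with the 8 shared loci above the line. Regions lie on both sides of Tyr locus 3 and Tyrp1 loci 2 and 4, and on 1 side of Tyrp1 loci 3 and 7 and Dct locus 4.

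The windows held 11 H3K4me1 regions at Tyr, 24 at Tyrp1 and 12 at Dct. They covered 7.9 kb (3.59%) of the Tyr window, 19.2 kb (16%) of the Tyrp1 window and 11.6 kb (8.29%) of the Dct window, against 1.5% of the sequence spanned by the lists. Of the 47 regions 13 (27.7%) overlapped an EP300 peak of either list, compared with 18.7% of all regions. These 13 had a median length of 1400 bp, with a range of 400 bp to 4350 bp, and the 34 others had a median of 400 bp, with a range of 100 bp to 2300 bp. Over the whole list the medians were 800 bp and 450 bp.

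The best-ranked region of the 47 was not at an EP300 peak. It lay in the Tyr window at chr7:94627700-94629999, was 2300 bp long and ranked 322, with a maximum log2 fold change of 5.10 in the authors' list. The nearest EP300 peak of either list was 8.18 kb away. Of the regions ranked 1 to 1000, 58.3% overlapped an EP300 peak. It opened a run of 5 regions, up to chr7:94634700-94634999, none of which met a peak. The next best were the region of 4350 bp at Dct locus 4, with a log2 fold change of 5.06, and the region of 1800 bp at Tyrp1 locus 1, at 4.83. In the Tyrp1 window the region beside locus 5, at 4.73, also overlapped no peak.

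**Figure D5:**
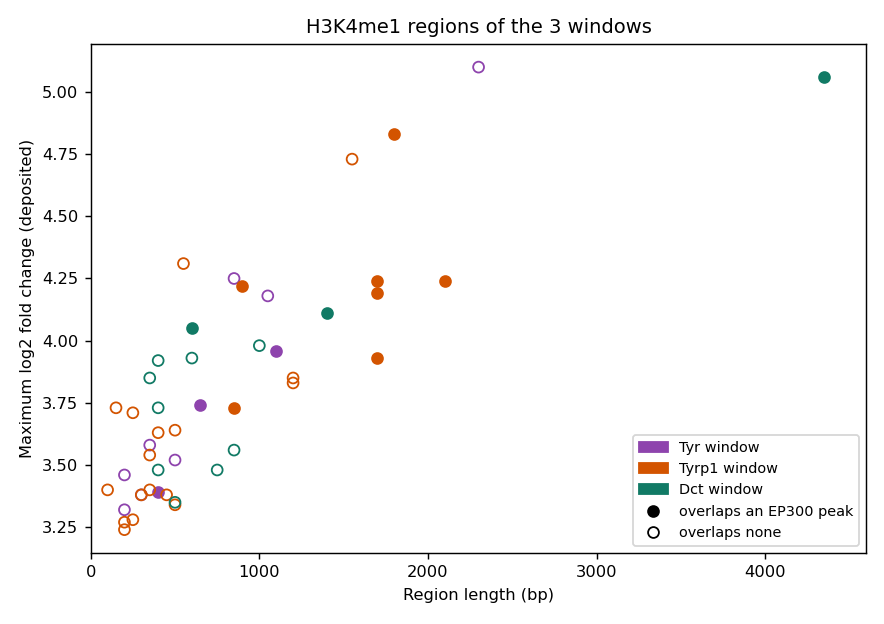
Length in bp against the deposited maximum log2 fold change of the 47 H3K4me1 regions, coloured by window. Filled points overlap an EP300 peak of either list and open points overlap none. The open point at 2300 bp and 5.10 is the Tyr region ranked 322, and the filled point at 4350 bp and 5.06 is the region at Dct locus 4.

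Set side by side, the loci differed in number and concentration of EP300 peaks. Shared loci came to 5 per 100 kb in the Tyrp1 window, 0.714 at Dct and 0.455 at Tyr, against 0.139 over all chromosomes. Dct and Tyr each had 1 shared locus, so their densities differ only through the window lengths, 140 kb and 220 kb. The windows were chosen with results of these data known, so these densities describe them only. At Dct the strongest peak held 79.8% of the tags of all its EP300 peaks in replicate 1 and 74.6% in replicate 2. At Tyr it held 100% in replicate 1, where it was the only peak, and 74.7% in replicate 2. At Tyrp1 the strongest peak held 34.4% and 26.7%, the rest being divided among the other loci. It was locus 3 in replicate 1 and locus 2 in replicate 2. The shares also depend on the number of peaks, 6 and 7 at Tyrp1 and 3 and 3 at Dct. Neighbouring shared loci of Tyrp1 were 5.83 kb to 22.5 kb apart.

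Outside the windows the nearest EP300 peak of either list was 185 kb away at Tyr, 68.1 kb at Tyrp1 and 234 kb at Dct, measured from the window edge, with 27, 28 and 34 tags. The peak nearest to an edge on the inside was Tyrp1 locus 1, 3.74 kb from the lower edge in replicate 1. The nearest H3K4me1 region outside was 9.7 kb beyond the Dct window and 15.2 kb beyond the Tyrp1 window. At Tyr it was 621 kb above and 2602 kb below the window. In the RefSeq table, on GRCm38.p6, the protein-coding neighbours are Nox4 and Grm5 for Tyr, Ptprd and Lurap1l for Tyrp1, and Gpc6 and Tgds for Dct. Peaks were not assigned to these genes.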

How the data were processed

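EP300 peaks were called with MACS 1.4.1 on each replicate against its own control, at a p-value threshold of 1e-05 and with at most 2 duplicate tags per position, per the file headers. The deposited columns are a count of tags, a score of 10 times the -log10 p, the fold enrichment ratio and a false discovery rate in percent. For H3K4me1 the authors deposited a rank, a score, the largest log2 fold change of each region, the -log10 of its smallest Poisson p (at most 100) and a false discovery rate as a fraction. The sources used here do not give its caller, its depth or how replicates were pooled. The build is mm9, per the submitters' processing notes. Peak values are the authors'.

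Members, lists and alternatives were chosen with earlier results of these data known; every EP300 peak in the windows is named. Peaks overlapping by at least 1 bp formed a shared locus, centred on the overlap of its best-ranked pair, or on the midpoint of a peak found in 1 list. The control background was solved from the Poisson probability of more tags than observed, for peaks with a score under 3100, and is given relative to the mean ChIP tag density of the genome. The fold then implied a summit height within 0.1 of a whole number at 96.9% of the 8446 peaks solved in replicate 1 and 96% of the 10350 in replicate 2. Python 3.11.15 and scipy 1.17.1 were used, functions were tested on simulated data, and no test between groups was made.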

Additional observations from a re-analysis of the deposited data

How the results depend on the processing

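The count of EP300 peaks in the windows, 23, was 17 in the upper 50% of each list and stayed at 23 with windows extended by 20 kb. It ranged from 10 to 13 with 1 list left out, by construction. The 8 shared loci were 7 in the upper 50% of each list, where Tyrp1 locus 4 was lost, and 8 when 50% of the shorter peak had to overlap. With all peaks of 1 list in their place, the number ranged from 10 to 13. Of the 47 H3K4me1 regions 25 were in the upper 50% of the list and 49 in the extended windows. Of the 8 centres, 3 lay in a gap, also with regions within 2000 bp and with the mean of the summits as centre. With the upper 50% of regions the number was 2. It was 0 with regions within 500 bp, as it had to be, since the gaps were 1050 bp to 1100 bp wide. Over all peaks of 1 list the number in a gap ranged from 3 without replicate 1 to 5 without replicate 2. The median log2 ratio of the replicates, 0.26, was 0.04 in tags per kb. No test was made, paired or not, and the replicate ratios were taken locus by locus. Without a known H3K4me1 depth, a missing region does not show that the mark is absent.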
